A study of Mus musculus with 6 samples.

Results

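Fibrinogen is the soluble plasma protein that thrombin turns into the fibrin of a clot, and it is made of 3 different chains, each encoded by its own gene. Fga encodes the α chain, Fgb the β chain and Fgg the γ chain. These 3 genes were taken from a table of 41388 genes by their Ensembl identifiers, matched to symbols of the GENCODE M21 annotation (ENSMUSG00000028001 for Fga, ENSMUSG00000033831 for Fgb and ENSMUSG00000033860 for Fgg). All 3 were among the 12693 genes that entered the tests, for which the average over the libraries had to reach 0.5 RPKM. They were chosen by their difference in RPKM between the groups in earlier work on these data, so their levels, fold changes and ratios are given as a description with no test.

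Hepatocytes are the main source of plasma fibrinogen. The chains are joined in the endoplasmic reticulum into a dimer that holds each chain in equal number, and only the complete molecule is secreted efficiently. Fibrinogen is also an acute phase protein: during inflammation interleukin 6 (IL-6), acting through the receptor subunit gp130 and the transcription factor STAT3, raises transcription of all 3 genes in liver, with glucocorticoids and C/EBP factors acting on the same promoters.

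RNA was sequenced from primary hepatocytes of C57BL/6J mice, isolated with collagenase, kept overnight in growth medium and then exposed to adenovirus at about 1000000 viral particles per 1000000 cells for 24 h. Control cultures received adenovirus encoding β galactosidase (β-gal; replicates 1, 2 and 3) and the others adenovirus encoding ALOXE3 (Aloxe3; replicates 7, 8 and 9), the gene of an epidermal lipoxygenase (n = 3 per group). Both groups carried a virus, and no cultures without virus were analysed here. The labels do not say whether replicates came from separate mice or cultures, so the spread between them may be technical.

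Values are RPKM, in which the reads of a gene are divided by its length in kilobases and set per 1000000 reads of the library. The library size was 25521908 to 32431318 reads. Aloxe3 rose from 1.74 to 2.06 RPKM in the β-gal libraries to 42.3, 45.8 and 56.3 RPKM in replicates 7, 8 and 9 (adjusted p = 4.74e-06, limma), as its label says. Reads from the virus and from the cell's own gene cannot be told apart here. Alb (albumin), the hepatocyte gene with the highest value, had 4500 to 4550 RPKM in β-gal cultures and 4360 to 4510 RPKM with Aloxe3, whereas the hepatocyte markers Tat, Cyp3a11 and Pck1 were at or below 0.767 RPKM in every library. Aloxe3 replicate 9 stood apart for mitochondrially encoded RNA, with 4870 RPKM of mt-Nd1 against 3240 to 3620 RPKM in the other libraries. In RNA from a whole culture, a change in the number of cells that express a gene and a change in RNA per cell cannot be told apart.

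The 3 genes form a cluster on chromosome 3 (GRCm38) that spans 42140 bases, from 83007724 to 83049863. Fgg lies first (83007724 to 83015049) and is read in the forward direction. Fga follows 11026 bases further on (83026076 to 83033627), in the same direction, and Fgb (83040141 to 83049863) is read in the opposite direction, so that the ends of Fga and Fgb face each other across 6513 bases. GENCODE M21 gives 2 protein-coding transcripts for Fga (5 and 6 exons), 1 for Fgb (8 exons) and 2 for Fgg (10 and 9 exons). Reads were counted per gene, so the transcripts of Fga and of Fgg cannot be separated.

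The bases before each gene are shown because all 3 genes were higher in the same libraries. They are RefSeq sequences of GRCm38.p6, matched by symbol for 3 of 3 genes, written 5′ to 3′ on the strand of the gene and ending just before its start. Capitals mark the IL-6 response core CTGGGAA and the STAT palindrome, TTC and GAA with any 3 bases between them. They cover chr3:83007474-83007723 (forward) for Fgg, chr3:83025903-83026075 (forward) for Fga and chr3:83049864-83050113 (reverse) for Fgb. The last 77 bases before the RefSeq start of Fga belong to its first exon in GENCODE M21 and are left out.
Fgg: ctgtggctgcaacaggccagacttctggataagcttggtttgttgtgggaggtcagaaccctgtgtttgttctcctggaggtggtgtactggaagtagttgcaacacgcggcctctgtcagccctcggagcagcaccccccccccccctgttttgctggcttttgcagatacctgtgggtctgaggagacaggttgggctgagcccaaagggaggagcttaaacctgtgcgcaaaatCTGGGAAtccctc
Fga: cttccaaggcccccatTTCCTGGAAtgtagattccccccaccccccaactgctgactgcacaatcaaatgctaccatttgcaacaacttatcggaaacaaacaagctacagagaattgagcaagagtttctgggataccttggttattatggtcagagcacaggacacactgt
Fgb: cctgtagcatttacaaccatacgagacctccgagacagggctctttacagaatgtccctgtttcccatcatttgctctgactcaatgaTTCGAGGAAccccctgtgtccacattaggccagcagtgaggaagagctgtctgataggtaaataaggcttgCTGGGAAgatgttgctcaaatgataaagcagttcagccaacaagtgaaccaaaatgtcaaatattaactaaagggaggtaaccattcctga

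The motifs named here were searched on both strands in the 250 bases before each RefSeq start. Fgb held both the IL-6 core, at -91 to -85, and a STAT palindrome, at -162 to -154, counted from the RefSeq start with no position 0. Fgg held the IL-6 core at -13 to -7, close to its start, and no STAT palindrome. Fga held a STAT palindrome at -234 to -226 and no IL-6 core. Of 32851 promoters in the RefSeq table, 9.1% held the IL-6 core, 7.02% the STAT palindrome and 14.6% either one. The C/EBP pattern (TT, any 2 bases, G, any base, AA) was found once before Fga and at 2 places before Fgb, against 36.8% of all promoters with at least 1 match. It was not found before Fgg, and TATAAA, which 12.4% of promoters held, was found before none of the 3 genes. No matches overlapped. A match says that the letters are there, and no binding was measured.

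**Figure D1:**
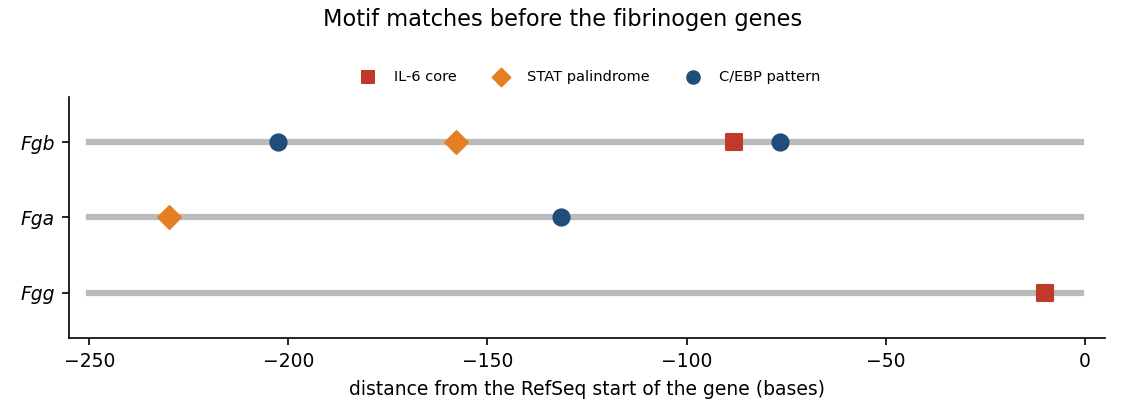
Motif matches in the 250 bases before each fibrinogen gene, with distance from the RefSeq start in bases on the horizontal axis and 1 line per gene. Each gene has at least 1 red (IL-6 core) or orange (STAT palindrome) mark, Fgb has both, and Fgg has a single match, at -13 to -7.

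Each chain was higher in every Aloxe3 library than in every β-gal library. Among all tested genes, 11.2% lay higher in this way, 8.71% lay lower, and the groups were thus separate for 19.9%. The summed RPKM of the chains was 354, 361 and 383 in β-gal replicates 1, 2 and 3 and 625, 570 and 583 in Aloxe3 replicates 7, 8 and 9 (means 366 ± 15.3 and 593 ± 28.5, SD, n = 3 each), a sum of which Fgb made up most.

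Fga, the gene of the α chain, had 25.5, 29 and 32 RPKM in β-gal replicates 1, 2 and 3 and 60.6, 53.3 and 58.8 RPKM in Aloxe3 replicates 7, 8 and 9. The lowest Aloxe3 library stood 21.4 RPKM above the highest β-gal library. The means were 28.8 ± 3.22 RPKM (SD, n = 3) and 57.6 ± 3.8 RPKM (SD, n = 3), a 2.0-fold difference, and the 9 pairs of libraries gave folds of 1.67 to 2.37. On the log2(RPKM + 1) scale the difference was 0.98 (SE 0.08), the largest of the 3 chains and at place 12 among all tested genes. Reads per gene could be derived only up to a whole factor, and Fga rested on at least 2767 reads in each β-gal library and at least 5197 in each Aloxe3 library.

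Fgb, which encodes the β chain, had the highest RPKM of the 3 in every library. It had 296, 302 and 318 RPKM in β-gal cultures and 502, 465 and 461 RPKM with Aloxe3 (replicates in the same order). The groups were 143 RPKM apart at their nearest. Means of 305 ± 11.3 and 476 ± 22.7 RPKM (SD, n = 3 each) gave a 1.56-fold difference, with pairs of libraries from 1.45 to 1.69. The log2 difference was 0.64 (SE 0.05). Fgb moved from places 101 to 114 to places 70 to 73 when the tested genes of a library were ordered by RPKM.

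Fgg, the gene of the γ chain, stood close to Fga in level, at 31.8, 30.6 and 33.1 RPKM in β-gal cultures and 62.1, 51.8 and 63.6 RPKM with Aloxe3. As for Fga, Aloxe3 replicate 8 was the lowest of its group, and it still lay 18.7 RPKM above the highest β-gal library. The means were 31.8 ± 1.27 and 59.2 ± 6.45 RPKM (SD, n = 3 each), 1.86-fold apart, with a range over pairs of 1.56 to 2.08 and a log2 difference of 0.87 (SE 0.08). Fgg rested on at least 1532 reads in each β-gal library and at least 2462 in each Aloxe3 library.

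**Figure D2:**
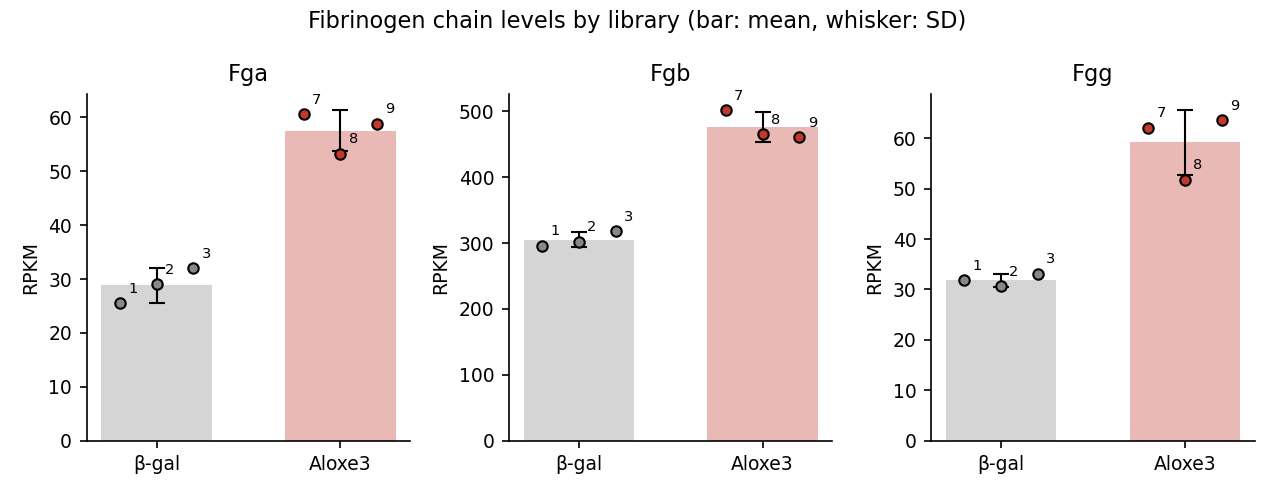
RPKM of Fga, Fgb and Fgg (vertical axes, each from 0) in the β-gal and Aloxe3 groups, with bars for the mean, whiskers for the SD (n = 3) and numbered points for the replicates. In each panel the 3 Aloxe3 points lie above the 3 β-gal points, and Fgb has an axis of its own.

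The order of the levels, per length of gene, was Fgb far above Fgg and Fga, which were close to each other. With β-gal, Fgb was 11.6, 10.4 and 9.95 times Fga and 9.31, 9.86 and 9.61 times Fgg. With Aloxe3 these multiples were lower, at 8.28, 8.72 and 7.84 for Fga and 8.09, 8.98 and 7.24 for Fgg. The RPKM of the 3 chains was thus unequal in both groups. Levels of different genes depend on the gene lengths the authors divided by, which are not stated. The smallest lengths that turn the RPKM values into whole reads are 3358 bases for Fga, 1644 for Fgb and 1564 for Fgg, where the exons of GENCODE M21 add up to 3010, 3810 and 2093 bases. Any whole multiple of these lengths gives whole reads too, so the order of Fga and Fgg in read number is not known. The change of a ratio between the groups does not depend on the lengths.

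Relative to Fgb, Fga and Fgg were both higher in the Aloxe3 libraries. Per 100 RPKM of Fgb there were 8.62, 9.61 and 10.1 RPKM of Fga with β-gal and 12.1, 11.5 and 12.8 with Aloxe3, with means of 9.43 ± 0.735 and 12.1 ± 0.644 (SD, n = 3 each). For Fgg there were 10.7, 10.1 and 10.4 RPKM per 100 of Fgb with β-gal and 12.4, 11.1 and 13.8 with Aloxe3 (means 10.4 ± 0.3 and 12.4 ± 1.34, SD, n = 3 each). Neither of these ratios overlapped between the groups, though Aloxe3 replicate 8 came near to β-gal replicate 1 for Fgg. Ratios within a library do not depend on its total reads. Fga per 100 RPKM of Fgg did overlap. It was 80.2, 94.8 and 96.6 with β-gal and 97.6, 103 and 92.4 with Aloxe3, so that Aloxe3 replicate 9 lay below β-gal replicates 2 and 3, and the means differed by 7.15 against SDs of 8.95 and 5.32.

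**Figure D3:**
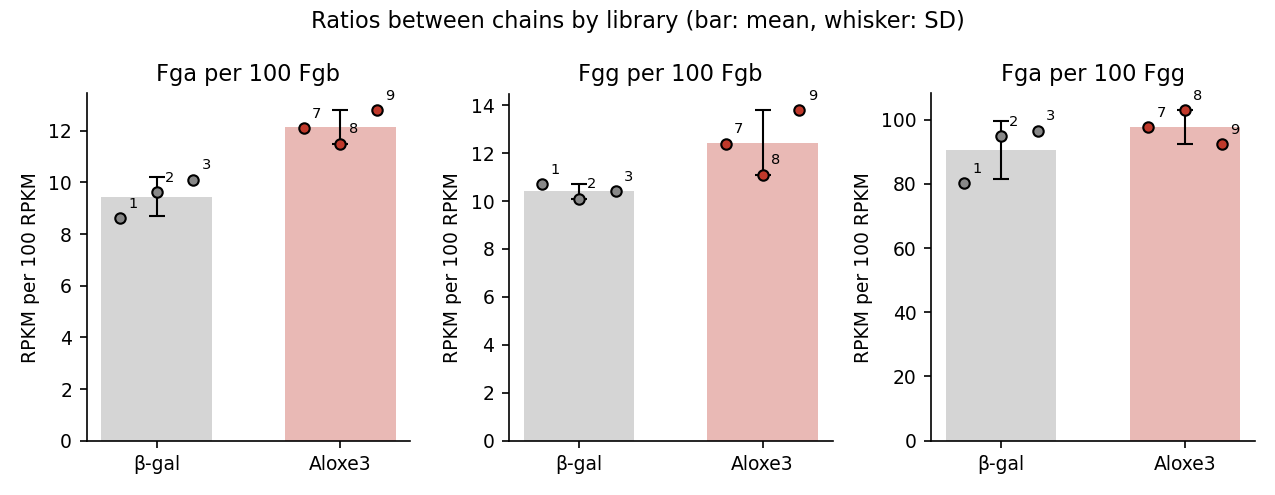
Ratios between chains in each library, as RPKM of the first gene per 100 RPKM of the second (vertical axes from 0), with means (bars), SDs (whiskers, n = 3) and numbered replicates. The groups are separate for Fga and for Fgg against Fgb and overlap for Fga against Fgg, where β-gal replicate 1 is lowest at 80.2 and Aloxe3 replicate 8 highest at 103.

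Within the groups the chains varied to different degrees. The CV over the 3 β-gal libraries was 11.2% for Fga, 3.72% for Fgb and 3.99% for Fgg, and over the 3 Aloxe3 libraries 6.59%, 4.76% and 10.9%. β-gal replicate 3 had the highest value of its group for all 3 chains. Once each library was set against its own group's mean (log2 scale, 6 libraries), the deviations of Fga and Fgb had a Pearson r of 0.74, those of Fga and Fgg of 0.58 and those of Fgb and Fgg of 0.38. With 3 libraries per group these values are only a description. The Aloxe3 libraries did not rank by Aloxe3 itself: replicate 9, highest for Aloxe3 at 56.3 RPKM, was highest for Fgg and lowest for Fgb.

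The genes whose pattern over the 6 libraries was most like that of the chains were found by the root mean square difference from the chains' mean profile, on the log2(RPKM + 1) scale relative to each gene's own β-gal mean. The nearest was Ccne2, the gene of the G1/S cyclin E2, at a difference of 0.123, with 1.97 ± 0.185 RPKM in β-gal cultures and 4.05 ± 0.611 RPKM in Aloxe3 cultures (SD, n = 3 each). Also among the nearest were n-R5s189 (0.124), a ribosomal RNA gene with 2 to 7 derived reads per library, Hsd17b13 (0.157), which encodes a lipid droplet enzyme of hepatocytes, and E2f7 (0.169), which encodes a repressor of the E2F family. Hsd17b13 had 4.34, 5.15 and 4.75 RPKM in β-gal cultures and 8.76, 6.83 and 8.19 RPKM with Aloxe3, so that replicate 8 was lowest of its group, as for Fga and Fgg. All but Hsd17b13 were below 5 RPKM, far less than the chains.

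Around the cluster, 7 other annotated genes of the table lie within 500 kb. Of these, 5 were listed at 0 in every library, and Rbm46 was at or below 0.0908 RPKM. Plrg1, which encodes a splicing factor and starts 5.66 kb beyond Fgb, was the only neighbor at a level that could be tested. It had 25.8, 24.3 and 25.4 RPKM in β-gal cultures and 25.6, 25.5 and 24.2 RPKM with Aloxe3 (means 25.2 ± 0.749 and 25.1 ± 0.745, SD, n = 3 each, adjusted p = 0.976 from limma). Its difference on the log2 scale had an SE of 0.039. The call was the same with voom, and a limit of 200 kb left the same tested gene.

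To set the chains beside the genes known to act with them, genes of 8 lists were read from a single limma fit over all 12693 tested genes. Of these genes 45 rose and 5 fell at an adjusted p of 0.05, or 0.394% (0.355% higher, 0.0394% lower). At an unadjusted p under 0.05 there were 12.7%. Of the 199 distinct list genes tested, 7 were past the threshold (5 higher, 2 lower). Without a filter on low values 0 were past it, with 1 library left out 0 to 3, and with voom 22. The lists were compiled with earlier results of these data known, so their counts are a description.

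The factors that act on the fibrinogen promoters showed no called change in limma. Of 34 tested genes of IL-6 signaling and of the promoter factors, 0 passed in limma, where 7 had an unadjusted p under 0.05 (4 higher, 3 lower), and 1 passed with voom. Their median log2 difference was 0.03, beside 0.005 over all tested genes. For 7 of the 34 every Aloxe3 library was above every β-gal library, among them Cebpb, and for 3 every one was below. Over all tested genes 11.2% lay higher and 8.71% lower in this way. Il6ra, the receptor for IL-6, had 5.29 ± 0.193 RPKM in β-gal cultures and 5.23 ± 0.287 RPKM with Aloxe3, and Il6st, the gene of gp130, had 25.1 ± 0.186 and 25.6 ± 1.25 RPKM (SD, n = 3 each). Stat3 was at 24.9 ± 1.19 and 25.4 ± 1.29 RPKM, a log2 difference of 0.03 (SE 0.051). Socs3, the feedback inhibitor that STAT3 induces, had a log2 difference of 0.14 (SE 0.072, adjusted p = 0.481 from limma), with the groups overlapping.

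Of the C/EBP genes, Cebpb was the most abundant, at 101 ± 1.23 and 108 ± 4.99 RPKM (SD, n = 3 each), a log2 difference of 0.09 (SE 0.042, adjusted p = 0.423 from limma). Cebpa (log2 difference 0.06) and Cebpd (0.12) overlapped between the groups. So did Nr3c1, the gene of the glucocorticoid receptor (0.02, SE 0.043). The smallest p of the list was that of Onecut1, which encodes a liver transcription factor, at 0.473 ± 0.0396 RPKM in β-gal cultures and 0.992 ± 0.146 RPKM with Aloxe3 (adjusted p = 0.0869 from limma), the gene that voom called. Cish, a cytokine-induced inhibitor, was at 4.29 ± 0.118 and 3.7 ± 0.0338 RPKM (adjusted p = 0.214). Il6 itself was below the level tested, at 0.114, 0.199 and 0.373 RPKM in β-gal cultures and 0.469, 0.454 and 0.313 RPKM with Aloxe3. These Il6 values rest on 4 to 15 derived reads per library. Osm, another ligand of the family, was at or below 0.0333 RPKM.

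Among 39 tested acute phase genes 3 rose, which is 7.69%, and 0 fell. With voom the count was 7. The median over the list was 0.03. Hp, the gene of haptoglobin, which binds free hemoglobin, had 825 ± 25.6 RPKM in β-gal cultures and 1180 ± 35.3 RPKM in Aloxe3 cultures (SD, n = 3 each, log2 difference 0.51, adjusted p = 0.00781 from limma). Crp, the gene of C-reactive protein, rose from 3.05 ± 0.0792 to 5.13 ± 0.59 RPKM (log2 difference 0.59, adjusted p = 0.0261). Steap4, the gene of a metalloreductase, rose from 31.6 ± 1.58 to 40.3 ± 1.9 RPKM (log2 difference 0.34, adjusted p = 0.0498). Leaving out Aloxe3 replicate 7 or 8 ended the call for Hp (adjusted p = 0.0545 and 0.0518). Crp kept it only without Aloxe3 replicate 9 (0.0117; up to 0.126 otherwise), and Steap4 lost it without any 1 of the 6 libraries (0.0806 to 0.151). Under the other processing alternatives Hp passed in 8 of 9 (adjusted p 2.79e-06 to 0.146), Crp in 7 of 8 (0.0015 to 0.146) and Steap4 in 5 of 9 (0.00143 to 0.186).

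The other acute phase genes ranged from -0.14 to 0.61 in log2 difference, and 13 of the 39 had an unadjusted p under 0.05 (9 higher, 4 lower). For 11 of the 39 every Aloxe3 library was above every β-gal library, and for 5 every one was below. Over all tested genes 11.2% lay higher and 8.71% lower in this way. Beside the called genes, and chosen after their values were seen, the higher genes of the list included Apcs, the gene of serum amyloid P, at 3.64 ± 0.676 and 5.29 ± 0.263 RPKM (SD, n = 3 each, adjusted p = 0.153 from limma), Cp (ceruloplasmin) at 165 ± 11.5 and 196 ± 11.5 RPKM (adjusted p = 0.237), Lbp at 7.58 ± 0.926 and 9.11 ± 0.766 RPKM (adjusted p = 0.334) and C3 of the complement system at 558 ± 10.6 and 627 ± 11.1 RPKM (adjusted p = 0.168). Ahsg also lay higher without overlap, at 204 ± 6.89 and 236 ± 11.8 RPKM (adjusted p = 0.18 from limma). The lower ones were Serpina3k, Serpina1a (52.2 ± 1.07 and 48.3 ± 0.306 RPKM, adjusted p = 0.262 from limma), Serpina1d and Serpina1e, all of families of close copies, and Vtn (vitronectin) at 138 ± 4.73 and 126 ± 3.15 RPKM (adjusted p = 0.289). For 3 serum amyloid A genes the groups overlapped, as they did for Lcn2, Orm1 and Serpina3n. Saa2 had 125 ± 6.87 and 116 ± 6.68 RPKM (SD, n = 3 each). Saa1 had 336 ± 35.8 RPKM in β-gal cultures and 338 ± 4.94 RPKM with Aloxe3, and Saa3 had 223 ± 52.3 and 227 ± 23.1 RPKM (SD, n = 3 each). These are again close copies, and reads that align equally to several of them were not counted. Saa4 stood at 6.69 ± 1.07 and 10.7 ± 0.608 RPKM (adjusted p = 0.0657 from limma). Hpx, the gene of hemopexin and the most abundant of the list, had 3750 ± 68.9 and 3860 ± 171 RPKM. Of the 40 listed acute phase genes, 31 were found among the RefSeq promoters, and 6 of these (19.4%) held the IL-6 core or the STAT palindrome, beside 16.5% of all symbols. Steap4 was among the 6, and Hp and Crp were not.

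**Figure D4:**
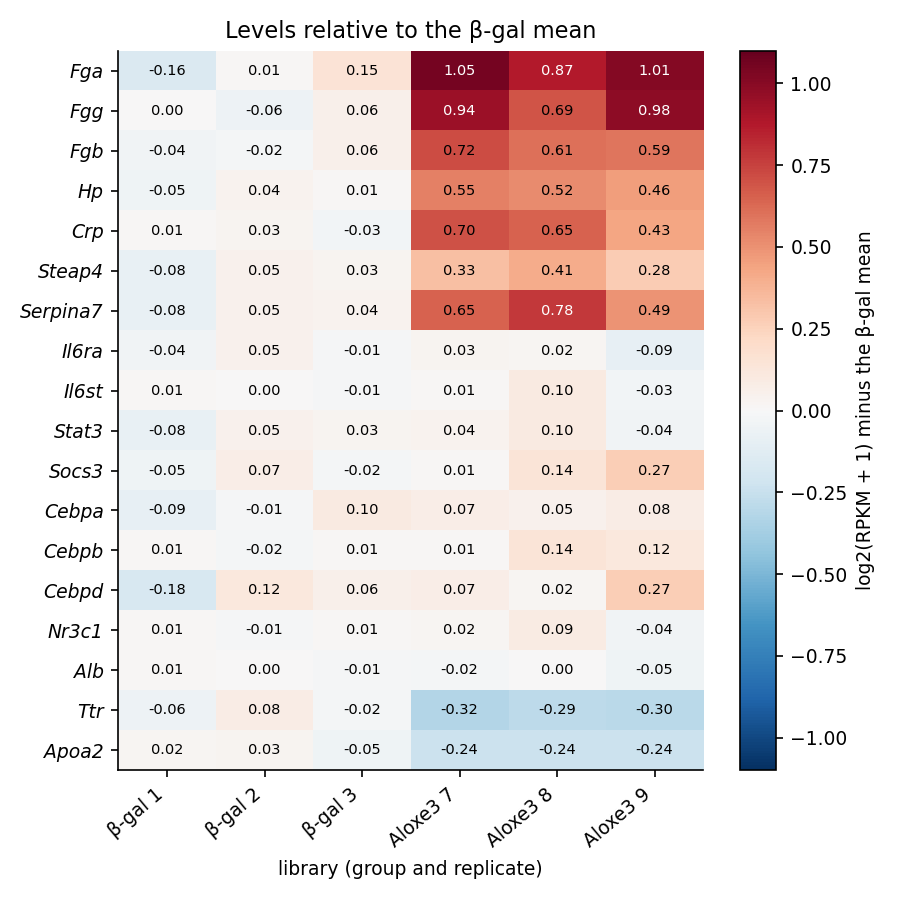
Level of each gene in each library as log2(RPKM + 1) minus the gene's β-gal mean, printed in each cell and colored from blue (lower) to red (higher). Fga, Fgg and Fgb are between 0.59 and 1.05 in the Aloxe3 libraries, Hp, Crp, Steap4 and Serpina7 are also red there, and the regulators from Il6ra to Nr3c1 lie between -0.09 and 0.27 in these 3 libraries.

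Around fibrinogen in the clotting pathway, 0 of 25 tested clotting factors and inhibitors passed in limma (6 at an unadjusted p under 0.05, 5 of them higher, and 2 with voom). The median log2 difference was 0.07. F2, the gene of prothrombin, whose active form cuts fibrinogen, had 67.3 ± 0.849 RPKM in β-gal cultures and 65.2 ± 1.05 RPKM in Aloxe3 cultures (SD, n = 3 each, adjusted p = 0.584 from limma), and Proc, the gene of the anticoagulant protein C, 60.2 ± 3.87 and 57.9 ± 4.56 RPKM. Serpina10, the gene of the protein Z-dependent protease inhibitor, was at 3.36 ± 0.271 and 5.41 ± 0.731 RPKM (adjusted p = 0.0553), and Kng2, a kininogen gene with a close copy in Kng1, at 18 ± 1.26 and 22.9 ± 1.02 RPKM (adjusted p = 0.0733). These were the genes that voom called.

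In the fibrinolysis list, which holds the genes that dissolve fibrin and their inhibitors, 0 of 13 tested genes passed in limma (6 at an unadjusted p under 0.05, 3 in each direction, and 4 with voom). Serpinf2, the gene of α2-antiplasmin, had 9.19 ± 0.684 and 12.1 ± 1.16 RPKM (SD, n = 3 each, adjusted p = 0.14 from limma). Habp2, a protease gene, had 5.33 ± 0.352 and 6.6 ± 0.172 RPKM (adjusted p = 0.118). Anxa2, the gene of a surface receptor for plasminogen, had 336 ± 12.1 and 287 ± 22.2 RPKM (adjusted p = 0.24).

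The genes for folding and assembly in the secretory pathway, which fibrinogen passes, held 0 calls among 44 tested genes in limma (6 at an unadjusted p under 0.05, all higher, and 2 with voom). Their median log2 difference was 0.01. Hspa5, the gene of the chaperone BiP and the most abundant of them with β-gal, had 427 ± 15.6 and 446 ± 26.8 RPKM, and Calr (calreticulin) 406 ± 22.7 and 449 ± 16.2 RPKM. Hsp90b1, which encodes GRP94, had the smallest p of the list, at 161 ± 9.6 and 200 ± 15.8 RPKM (SD, n = 3 each, adjusted p = 0.152 from limma), followed by Dnajc3, a cochaperone gene, at 37.2 ± 1.05 and 41.4 ± 1.26 RPKM (adjusted p = 0.24).

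Of 26 secreted plasma proteins outside the acute phase list, 1 rose and 2 fell in limma (11.5%), and 5 were called with voom. At an unadjusted p under 0.05 there were 9 (3 higher, 6 lower). The groups did not overlap for 4 higher and 7 lower, beside 11.2% higher and 8.71% lower of all tested genes. Of the 26, 8 had a log2 difference above 0, beside 6647 of all 12693 tested genes. Serpina7, the gene of thyroxine-binding globulin, rose from 10.5 ± 0.555 to 17 ± 1.8 RPKM (SD, n = 3 each, log2 difference 0.64, adjusted p = 0.0226 from limma). Ttr (transthyretin) fell from 124 ± 6.46 to 100.0 ± 1.06 RPKM (adjusted p = 0.0448) and Apoa2 (apolipoprotein A-II) from 280 ± 8.31 to 237 ± 0.214 RPKM (adjusted p = 0.0498). Serpina7 kept the call only without Aloxe3 replicate 9 (adjusted p = 0.0176; up to 0.116 otherwise), and Ttr (0.0793 to 0.15) and Apoa2 (0.0941 to 0.275) lost it without any 1 of the 6 libraries. Under the other processing alternatives Serpina7 passed in 8 of 9 (adjusted p 0.000146 to 0.146), Ttr in 6 of 9 (0.00187 to 0.164) and Apoa2 in 2 of 9 (0.00595 to 0.176). Alb had 4520 ± 26.2 and 4440 ± 76.7 RPKM, and Fgb was 6.51% to 7.07% of Alb with β-gal and 10.3% to 11.3% with Aloxe3.

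**Figure D5:**
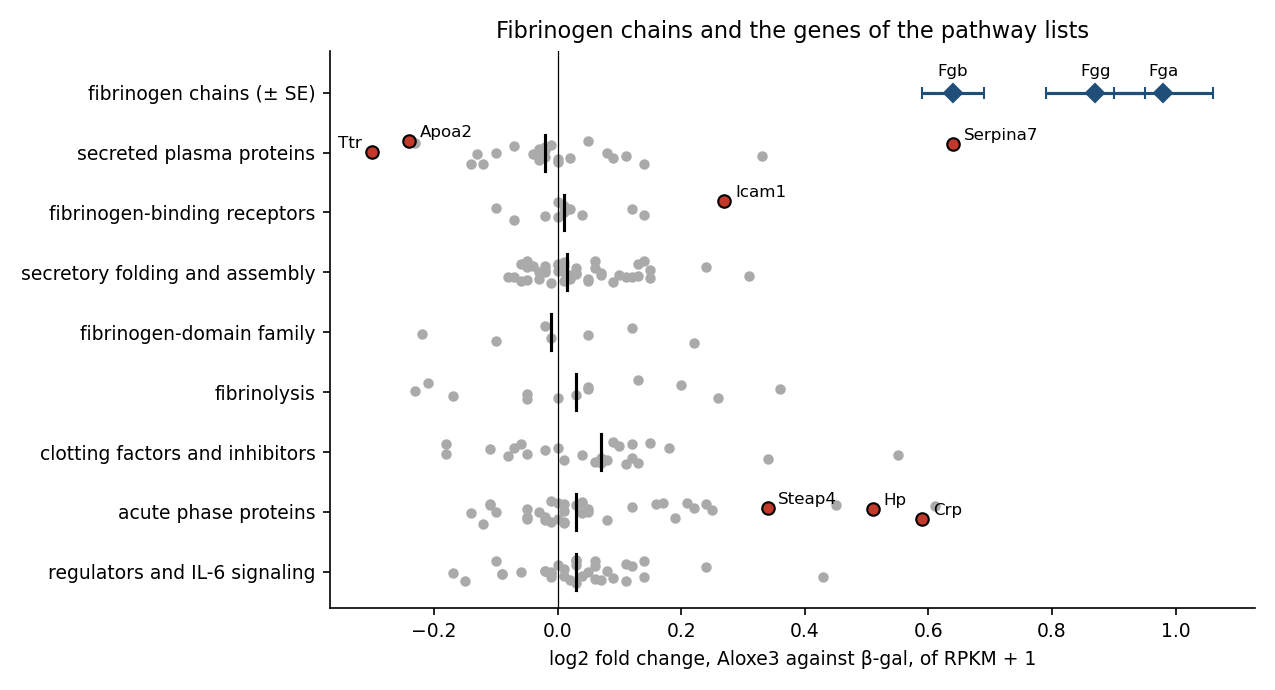
Log2 differences between Aloxe3 and β-gal (horizontal axis, RPKM + 1) for the fibrinogen chains (diamonds, whiskers for the SE) and the tested genes of each list (points; vertical position within a row has no meaning). Red points are past an adjusted p of 0.05 in limma, black lines are medians, and the chains lie between 0.64 and 0.98, and the highest list gene, Serpina7, is at 0.64.

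Markers of other cell types were read beside the chains. The summed RPKM of 11 Kupffer cell and macrophage markers was 156 to 161 with β-gal and 136 to 151 with Aloxe3, most of it Cd68, while Clec4f, Vsig4 and Timd4 were at or below 0.102 RPKM. The 12 hepatocyte markers added up to 5160 to 5190 RPKM in β-gal cultures and 4970 to 5140 RPKM with Aloxe3, most of it Alb, whereas 7 of the 10 tested markers had a log2 difference above 0 (median 0.05). Tat (0.193 to 0.346 and 0.438 to 0.661 RPKM) and Cps1 (0.915 to 1.05 and 1.29 to 1.64 RPKM) lay higher with Aloxe3 without overlap, at low levels. Ttr (119 to 131 and 99.4 to 101 RPKM) and Apoa1 (241 to 246 and 218 to 235 RPKM) lay lower without overlap, at higher levels. The sums of 9 endothelial markers (34.1 to 39 and 33.8 to 38.5 RPKM), 9 stellate cell markers (4.63 to 5.1 and 4.49 to 5.01 RPKM) and 6 cholangiocyte markers (1510 to 1590 and 1580 to 1720 RPKM, most of it Spp1) overlapped between the groups, and Lrat, a stellate marker, was listed at 0 in every library. The sum of 9 megakaryocyte and platelet markers was 2.27 to 2.51 RPKM in β-gal cultures and 2.83 to 2.89 RPKM with Aloxe3, with Gp6 at 0 in every library. The hepatocyte, macrophage and platelet sums did not overlap between the groups. Over these 6 lists only Ttr was past the threshold. The part of these sums in the levels of the chains was not tested.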

How the data were processed

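The 6 libraries were sequenced as single reads of 50 bases from poly-A selected RNA, in a single run. Per the labels and the study's methods, the authors aligned the reads with STAR 2.0.4b to the Ensembl release 76 mouse assembly (GRCm38.p2), used featureCounts 1.4.5 to count, for each gene, reads with 1 unambiguous alignment, and deposited RPKM values. The step from counts to RPKM is not given in the sources used here, and no setting for strand is stated. The RPKM values of 41388 genes were used as deposited. Of the identifiers, 40340 matched GENCODE M21 (GRCm38). The values are whole multiples of a step within a gene, which gave the library sizes. Reads of the chains were derived with the smallest length that made all 6 libraries whole (within 0.02), so that they are a minimum, known for each gene up to its own whole factor.

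Genes whose average reached 0.5 RPKM were tested on log2(RPKM + 1), two-sided, by the limma package (3.58.1; R 4.3.3) through lmFit and a trended eBayes step (Benjamini-Hochberg adjustment over all tested genes at 0.05). Fold changes on this scale understate those of low genes. An exact permutation test of 3 libraries against 3 cannot give a two-sided p below 0.1. Replicates differed by more than sampling noise (chi-square per degree of freedom at least 3.82) and were kept as separate samples. The members, the gene lists and the motifs were chosen with earlier results of these data known. Named are, in each list, the genes past the threshold, the 2 with the smallest p and the 2 with the highest mean, with a set of promoter factors, the tested neighbors within 500 kb and the 5 genes of most like pattern. A few of these are not reported here. Other names were chosen after their values were seen. Klkb1 had no match in the table. Scripts were tested on simulated reads with the same extra relative spread for every gene, and the outcome is not reported here. Sequences of the chains' proteins were not used here. Alternatives were a pseudocount of 0.1, no filter, a mean of at least 5 RPKM, median and quantile scaling, eBayes without trend, voom on the derived reads, correction for GC content and for exon length (natural splines, 5 degrees of freedom), and each library left out in turn.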

Additional observations from a re-analysis of the deposited data

How the results depend on the processing

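Each of the 6 values of the chains (3 log2 differences and 3 differences of log2 ratios) was recomputed under 15 alternatives, and all 90 kept their sign and moved by less than the SD between replicates. Much of this was fixed in advance. A changed filter or eBayes without trend cannot alter these values. Leaving out a library cannot move a difference by as much as that SD. The count of 90 is thus a description and no check of stability. Fga ranged from 0.9 to 1.05, Fgb from 0.6 to 0.68 and Fgg from 0.81 to 0.96. The Fga to Fgb ratio ranged from 0.28 to 0.38, Fgg to Fgb from 0.15 to 0.31 and Fga to Fgg from 0.03 to 0.16, each extreme but the 0.68 of Fgb from leaving out a library.

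The counts of calls moved more. Over all genes 50 were past the threshold, against 7 with no filter on low values, 173 with voom and 6 to 19 with 1 library left out. Of the list genes 7 were past it, against 0 with no filter, 3 with eBayes without trend, 22 with voom and 0 to 3 with 1 library left out. The cause was not tested. The count of neighboring genes was 0 throughout. No paired analysis was possible because the groups share no replicate numbers. At 1 read per kb, worth 0.0308 to 0.0392 RPKM, levels such as that of Osm rest on a few reads.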

Other observations

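Genes that share the fibrinogen domain with the β and γ chains were mostly below the level tested. Of 19 such genes 7 could be tested and 4 were listed at 0 in every library, and 0 of the 7 passed in limma (1 at an unadjusted p under 0.05, and 0 with voom). Fgl1, a fibrinogen-like gene of liver, had 9.29 ± 0.721 RPKM in β-gal cultures and 11 ± 0.877 RPKM in Aloxe3 cultures (SD, n = 3 each, adjusted p = 0.288 from limma). Angptl4, which encodes an inhibitor of lipoprotein lipase and is a known PPAR target, had 39.5 ± 3.65 and 36.8 ± 1.08 RPKM, and Tnc (tenascin C) 14.2 ± 2.23 and 12 ± 1.12 RPKM.

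Among 12 tested receptors that bind fibrinogen, Icam1, an adhesion molecule of leukocyte binding, rose from 21.1 ± 0.475 to 25.6 ± 0.356 RPKM (SD, n = 3 each, log2 difference 0.27, adjusted p = 0.0271 from limma), and lost the call without any 1 of the 6 libraries (0.0678 to 0.142), but passed in 7 of 9 other alternatives (0.00484 to 0.0958). The abundant integrin genes Itgb1 (291 ± 3.7 and 277 ± 11.8 RPKM) and Itgav (43 ± 1.99 and 43.4 ± 1.1 RPKM) were not called. Itga2b, the platelet integrin subunit, was at 1.16 ± 0.0944 and 1.39 ± 0.114 RPKM (adjusted p = 0.421).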
